A study of Mus musculus with 8 samples.

Results

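The genes examined build the accessory structures of the sperm tail: *Odf1*, *Odf2*, *Odf3* and *Odf4* of the outer dense fibers, and *Akap3*, *Akap4*, *Akap14*, *Ropn1*, *Ropn1l* and *Fsip1* of the fibrous sheath and its anchoring complex. They were chosen by name from this structural family, are 10 of the 21058 genes listed in the count table, and were measured in every library. RNA was sequenced from mouse pachytene spermatocytes, the male germ cells in mid-prophase of the first meiotic division, to ask how ARID1A, a putative DNA-binding subunit of the BAF chromatin remodeler, influences transcription at that stage. The cells were isolated from adult testes by unit-gravity sedimentation. There were 4 libraries from Arid1a cKO males (*Arid1a* fl/fl; *Stra8*-Cre Tg/0) and 4 from Arid1a WT males (*Arid1a* fl/fl or *Arid1a* fl/+ from the same crosses, listed without Cre), all on a CD1 background. *Stra8*-Cre acts in spermatogonia, before meiosis begins. The study describes excision as incomplete, so that the cKO cells were a mixture in which some spermatocytes still held ARID1A. Its methods describe testes as pooled before sedimentation and fractions as kept where light microscopy showed mostly pachytene cells. The labels call the libraries biological replicates without saying whether each came from its own purification, so the p-values measure the spread between these libraries.

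Outer dense fibers are stiff, cysteine-rich rods that run along the axoneme of the mammalian sperm tail, and the fibrous sheath surrounds them in the principal piece. The sheath is built mainly from A-kinase anchoring proteins, which hold the regulatory subunits of protein kinase A and carry glycolytic enzymes and the ropporins. Most of these proteins are made and assembled in spermatids, after meiosis. ODF2 also has isoforms that serve centrosomes and the base of cilia.

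Total estimated counts per library ran from 18308688 to 22044507 in WT and from 15850961 to 21626772 in cKO. The targeted gene, *Arid1a*, measured 98.8 to 128 CPM (TMM-scaled library counts per 1000000) in WT and 76.4 to 82.9 CPM in cKO, a log2 fold change of -0.51 (SE 0.07, edgeR adjusted p = 2.31e-05). Cre removes only some exons of the floxed allele, and a count over the whole gene includes excised transcripts, so these values do not show how much intact *Arid1a* RNA remained. Of the 17643 genes tested with edgeR's quasi-likelihood model, 6435 were higher and 6613 lower in cKO at an adjusted p of 0.05 or less. The 17 markers of round and elongating spermatids summed to 6659 to 7570 TPM (length-adjusted transcripts per 1000000) in WT and 27509 to 29433 TPM in cKO, and none of them was under 1 TPM in both genotypes. The 10 markers of pachytene spermatocytes summed to 5638 to 6135 TPM in WT and 4056 to 4387 TPM in cKO. Of the 7 leptotene and zygotene markers, 4 were higher and 3 lower. Their summed level was 416 to 524 TPM in WT and 256 to 262 TPM in cKO. Among the lower ones, *Sycp2* and *Spo11* went from means of 311 and 108 TPM in WT to 90.6 and 16.1 TPM in cKO. Of the 7 spermatogonial markers, 6 were higher and 1 lower, and their sum was 67.9 to 71.4 TPM in WT and 58.5 to 63.9 TPM in cKO. The lower one, *Id4*, went from a mean of 35.2 TPM in WT to 5.09 TPM in cKO, a larger fall than that of the sum. Markers of Sertoli cells and Leydig cells were lower in cKO for every gene tested, and 4 of 5 macrophage markers were higher at a summed level of no more than 10.5 TPM. In bulk samples, a change in the number of cells of a type and a change in RNA per cell cannot be told apart, and the part of these markers' cells in the results below was not tested.

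Of the 10 tail genes, 9 were higher in cKO, none was lower and *Odf4* alone did not pass the test. Among all genes tested, 36.5% were called higher and 37.5% lower. By DESeq2 and at an unadjusted p under 0.05 the number of members called lower was also 0. There were 7 members called with a log2 fold change of 2 or more, a size that 8.82% of all genes reached. The median log2 fold change of the 10 was 2.13, beside -0.02 over all genes tested. The members fell into 3 sizes of response: *Akap3*, *Akap4*, *Akap14*, *Ropn1*, *Odf1*, *Odf3* and *Fsip1* between 2.004 and 2.66, *Odf2* at 0.95 and *Ropn1l* at 0.40, and *Odf4* at -0.03.

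**Figure D1:**
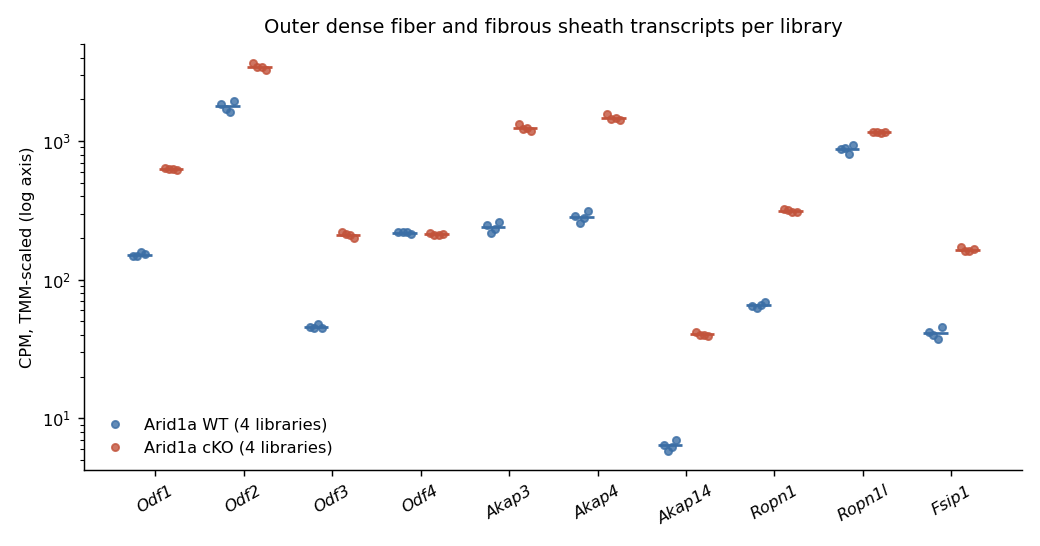
CPM of each member in every library, on a log axis, with 1 point per library and a line at each genotype's mean. The 4 cKO libraries lie above the 4 WT libraries for 9 members, and the genotypes overlap for *Odf4*.

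*Odf1* encodes a major, cysteine-rich protein of the outer dense fibers. It lies on chr15:38219203-38226735 (GRCm38, plus strand). WT replicates 1 to 4 held 148, 148, 159 and 152 CPM, and cKO replicates 1 to 4 held 645, 626, 628 and 621 CPM. Every cKO library was above every WT library, with a narrow spread in both genotypes. The log2 fold change was 2.05 (SE 0.05, edgeR adjusted p = 5.91e-14). Per transcript length the level went from 232 ± 15.2 to 876 ± 6.49 TPM (SD, n = 4).

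*Odf3*, which encodes a tail protein also known as SHIPPO1, on chr7:140847916-140850925 (plus strand), started lower and rose by more. It measured 45.8, 45.0, 48.2 and 44.8 CPM in WT and 220.3, 214, 212 and 201 CPM in cKO. The genotypes did not overlap. It rose by 2.20 on the log2 scale (SE 0.05, edgeR adjusted p = 5.47e-14), and the level went from 65.7 ± 3.71 to 278 ± 9.21 TPM.

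*Odf2*, the fiber protein with centrosomal isoforms, was already abundant in WT. The gene occupies chr2:29889014-29931746 (plus strand) and has 25 annotated transcripts. WT libraries held 1854, 1696, 1612 and 1947 CPM, and cKO libraries 3638, 3398, 3446 and 3283 CPM. The genotypes were apart, although the WT libraries spread over a wider range than for *Odf1*. Its log2 fold change of 0.95 (SE 0.07, edgeR adjusted p = 6.59e-09) was smaller than that of *Odf1* or *Odf3*, and the level went from 1404 ± 60.5 to 2557 ± 82.9 TPM.

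*Odf4*, a testis-expressed tail protein gene, lies on chr11:68921835-68927081 (minus strand). It measured 220.04, 219, 219.7 and 214 CPM in WT and 217, 210.4, 211 and 213 CPM in cKO. The genotypes overlapped, since cKO replicate 1 lay above WT replicate 4. The log2 fold change of -0.03 (SE 0.04) did not pass the test (edgeR adjusted p = 0.464). This call depended on the scaling. Without TMM factors *Odf4* was called lower at -0.13 (edgeR adjusted p = 0.00819), where the median of all genes also moved from -0.02 to -0.12. On log2(TPM + 1) it was called lower at -0.19 (limma adjusted p = 0.00353), with 366 ± 21.4 TPM in WT and 321 ± 4.72 TPM in cKO and no overlap. No alternative gave a call of higher for *Odf4*.

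The A-kinase anchors moved most. *Akap4* encodes the main structural protein of the fibrous sheath, and *Akap3* encodes its partner, which binds AKAP4 and the ropporins. *Akap3* lies on chr6:126853098-126874308 and *Akap4* on chrX:7067515-7078609, both on the plus strand. *Akap14*, a smaller anchor found in ciliated cells and sperm, lies on chrX:37150698-37168842 on the minus strand. The 250 bases before the annotated start are shown for these anchors, as the members with the largest changes, and for *Odf4*, as the member without a call. They come from RefSeq's promoter windows on GRCm38.p6 and are written 5′ to 3′ on the gene's strand. Capitals mark the longest run of bases that any pair of members had in common.
Akap3, chr6:126852848-126853097, plus strand: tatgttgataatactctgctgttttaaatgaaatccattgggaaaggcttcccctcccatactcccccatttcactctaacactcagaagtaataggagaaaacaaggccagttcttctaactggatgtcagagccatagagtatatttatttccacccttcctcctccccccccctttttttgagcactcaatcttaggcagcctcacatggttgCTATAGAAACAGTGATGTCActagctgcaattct
Akap4, chrX:7067265-7067514, plus strand: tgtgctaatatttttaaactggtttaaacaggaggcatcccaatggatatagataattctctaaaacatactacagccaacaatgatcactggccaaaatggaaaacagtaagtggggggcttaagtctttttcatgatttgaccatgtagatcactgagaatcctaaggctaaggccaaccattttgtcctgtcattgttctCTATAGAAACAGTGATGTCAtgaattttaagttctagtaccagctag
Akap14, chrX:37168843-37169092, minus strand: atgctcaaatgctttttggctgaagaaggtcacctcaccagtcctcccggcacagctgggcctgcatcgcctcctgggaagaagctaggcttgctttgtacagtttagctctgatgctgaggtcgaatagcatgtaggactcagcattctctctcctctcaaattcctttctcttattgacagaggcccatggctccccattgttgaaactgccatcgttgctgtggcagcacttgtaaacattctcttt
Odf4, chr11:68927082-68927331, minus strand: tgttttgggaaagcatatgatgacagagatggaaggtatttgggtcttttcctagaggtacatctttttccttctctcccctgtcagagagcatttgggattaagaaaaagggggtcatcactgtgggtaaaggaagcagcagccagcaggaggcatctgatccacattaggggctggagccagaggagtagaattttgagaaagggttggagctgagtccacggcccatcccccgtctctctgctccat

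The run in capitals, CTATAGAAACAGTGATGTCA, is 20 bases long and lies at -34 to -15 from the start of *Akap3* and at -47 to -28 from that of *Akap4*. Among the 32851 promoter windows searched on both strands it was held by 2, those of *Akap3* and *Akap4*. Over the 28 pairs of the 8 members with a promoter entry, the next longest shared run had 14 bases and the shortest 7. The search for shared runs was chosen after these sequences had been seen, and it describes the letters alone. The run holds the word TGATGTCA, which 1189 windows, 3.62% of all, also hold. It differs by a single letter from the cyclic AMP response element TGACGTCA, the site bound by CREM in spermatids. TGACGTCA itself was in none of the 8 members' windows and in 1.79% of all windows. Its shorter form TGACG, part of the full element, was in windows of *Odf2* only and in 20.8% of all. GTTGCC, a core of the X-box bound by RFX factors, was in windows of *Odf3* and *Ropn1l* and in 12.5% of all. The upstream part of both of these members' windows overlaps annotated exons.

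*Akap3* measured 249, 218, 234 and 259.8 CPM in the WT libraries and 1322, 1221, 1236 and 1174 CPM in the cKO libraries. Its log2 fold change was 2.37 (SE 0.06, edgeR adjusted p = 2.18e-13), and its level went from 115 ± 6.14 to 540 ± 22.3 TPM. For *Akap4* the libraries held 288, 256, 277 and 312 CPM in WT and 1576, 1436, 1461 and 1410.1 CPM in cKO. For both anchors, WT replicate 4 was the highest and WT replicate 2 the lowest WT library. In cKO, replicate 1 was the highest and replicate 4 the lowest library for both. *Akap14* and *Ropn1* had the same highest and lowest libraries, so this order was not particular to *Akap3* and *Akap4*. The log2 fold change of *Akap4* was 2.38 (SE 0.07, edgeR adjusted p = 2.76e-13), with 152 ± 9.43 TPM in WT and 715 ± 28.7 TPM in cKO.

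*Akap14* had the lowest level and the largest fold change of the 10. WT libraries held 6.43, 5.81, 6.25 and 7.01 CPM and cKO libraries 41.9, 40.0, 40.1 and 39.3 CPM. The genotypes lay far apart, on 125 or more counts per library. The log2 fold change was 2.66 (SE 0.07, edgeR adjusted p = 1.27e-13), and the level went from 5.62 ± 0.326 to 32.3 ± 0.581 TPM. Its last exon overlaps *Nkap* on the opposite strand, and 1.09% of its 31-base words occur in transcripts of that gene. The methods name a Kapa mRNA HyperPrep kit without stating whether the libraries kept the strand. Which of these genes the reads from that overlap came from is therefore not known here.

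*Ropn1* and *Ropn1l* encode ropporins, small proteins that dock on AKAP3 through the same kind of domain as the regulatory subunits of protein kinase A. *Ropn1* (chr16:34649832-34678610, plus strand) measured 64.3, 63.0, 65.5 and 68.9 CPM in WT and 322, 316, 310.1 and 306 CPM in cKO. It rose by 2.26 on the log2 scale (SE 0.05, edgeR adjusted p = 5.01e-14), from 146 ± 6.5 to 629 ± 7.87 TPM. *Ropn1l* (chr15:31441210-31453689, minus strand) measured 882, 892, 804 and 932 CPM in WT and 1159, 1164, 1135 and 1169 CPM in cKO. The genotypes were apart for both ropporins, but the gap was small for *Ropn1l*. Its log2 fold change was 0.40 (SE 0.05, edgeR adjusted p = 9.3e-06), from 1590 ± 65.5 to 1912 ± 32 TPM. The call held under every alternative run, but the size depended on the scaling, with 0.27 on log2(TPM + 1) and 0.11 on TPM rescaled over the listed genes.

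*Fsip1*, whose product binds AKAP4, lies on chr2:118130261-118256987 (minus strand). It measured 41.6, 39.7, 37.6 and 45.7 CPM in WT and 171, 162, 161 and 166 CPM in cKO. All cKO libraries were above all WT libraries, and the log2 fold change was 2.004 (SE 0.06, edgeR adjusted p = 4.96e-13), from 36.4 ± 1.7 to 135 ± 3.05 TPM. Of its 31-base words, 3.58% occur in *Gm29232*, which overlaps it on the same strand, and the share for *Odf2*, whose exons *Gm23865* overlaps on the opposite strand, was 1.44% with other genes. The remaining members, *Akap14* aside, shared none.

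*Akap4* and *Akap14* are X-linked, and the sex chromosomes are normally silenced in pachynema. The 799 X-linked genes tested had a median log2 fold change of 1.32, and 215 of them were at or above the value of *Akap4* and 136 at or above that of *Akap14*. The 16800 autosomal genes had a median of -0.06, with 489 at or above *Akap4* and 208 at or above *Akap14*. The autosomal *Akap3*, at 2.37, lay beside the X-linked *Akap4*, at 2.38.

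On the TPM scale, which allows levels of different genes to be set side by side, the order in WT from high to low was *Ropn1l*, *Odf2*, *Odf4*, *Odf1*, *Akap4*, *Ropn1*, *Akap3*, *Odf3*, *Fsip1* and *Akap14*. The neighbours *Akap4* and *Ropn1* overlapped between libraries in WT, and no other neighbours did. In cKO the order was *Odf2*, *Ropn1l*, *Odf1*, *Akap4*, *Ropn1*, *Akap3*, *Odf4*, *Odf3*, *Fsip1* and *Akap14*, with no overlapping neighbours. *Odf4* went from place 3 to place 7 while its own level moved little, because *Odf1*, *Akap4*, *Ropn1* and *Akap3* passed it.

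**Figure D2:**
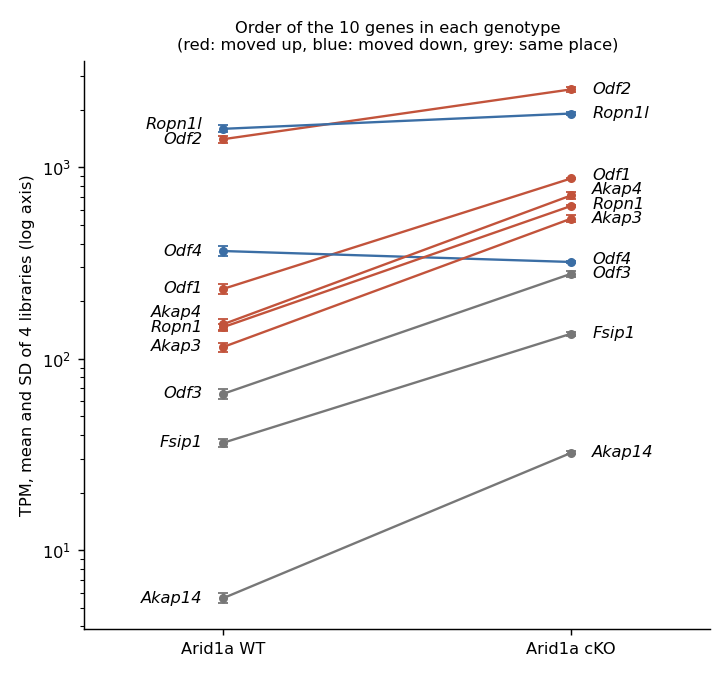
Level of each member in TPM, on a log axis, in WT and cKO, as the mean with the SD of 4 libraries and a line joining the genotypes. *Odf4*, at 366 TPM in WT and 321 TPM in cKO, is crossed by 4 members that move up.

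The summed level of the 10 genes was 4113 ± 89.03 TPM in WT, between 4026 and 4224, and 7996 ± 125 TPM in cKO, between 7833 and 8136. The ratio of the means was 1.94. As a share of estimated counts the members took 0.383% ± 0.0115 in WT and 0.858% ± 0.0184 in cKO, a ratio of 2.24. *Odf2* and *Ropn1l* together made up 72.8% ± 1.26 of the summed TPM in WT and 55.9% ± 0.213 in cKO. The listed genes as a whole summed to between 78.1% and 81.1% of all TPM in WT and between 88.1% and 88.6% in cKO. No test was made of a sum over chosen genes.

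Ratios between members within a library do not depend on the scaling between libraries, and 6 pairs were compared on log2(TPM + 0.1) with a two-sided exact permutation test over the 70 assignments of libraries, p adjusted over the 6 pairs. The smallest p that 4 against 4 libraries can give is 0.0286. *Akap4* to *Akap3*, the main sheath protein to its partner, was 0.39 in WT and 0.40 in cKO. The difference was 0.01, with an interval from -0.03 to 0.06 (exact permutation adjusted p = 0.6), so any shift in this ratio was small beside the change in either gene. *Odf1* to *Odf2* went from -2.60 to -1.54, a difference of 1.05 (interval 0.83 to 1.23). *Ropn1* to *Ropn1l* went from -3.44 to -1.60, a difference of 1.84 (interval 1.65 to 1.94). *Odf3* to *Odf4* went from -2.48 to -0.20, the largest difference of the 6 at 2.27 (interval 2.16 to 2.35). The shifts of *Akap14* and *Fsip1* against *Akap4* were smaller, 0.27 for *Akap14* to *Akap4* (interval 0.20 to 0.30) and -0.35 for *Fsip1* to *Akap4* (interval -0.47 to -0.22). With a pseudocount of 1 in place of 0.1, which weighs on the low *Akap14*, the shift of *Akap14* to *Akap4* was 0.10. For these 5 pairs the genotypes did not overlap and the exact permutation p was 0.0286, or 0.0343 adjusted. Each interval spans the 16 differences between a cKO and a WT library and covers 97.1% under a shift model.

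**Figure D3:**
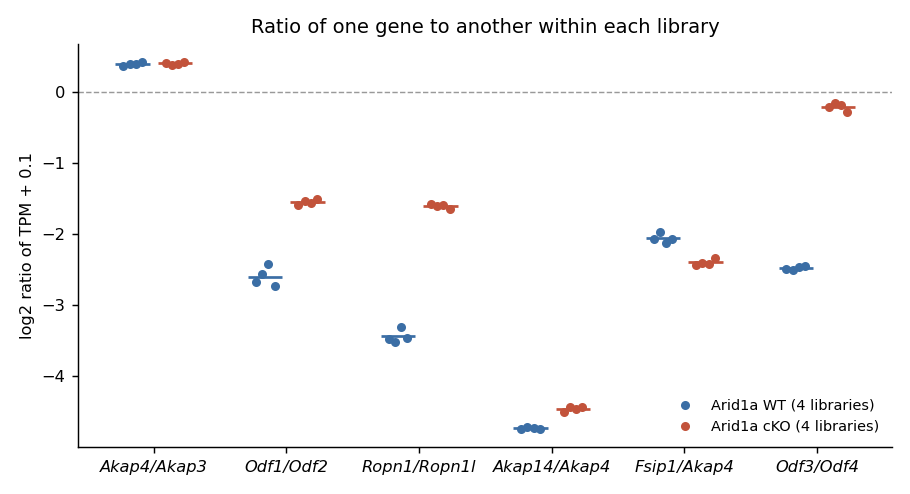
Within-library log2 TPM ratios of 6 pairs of members, 1 point per library and a line at each genotype's mean. The genotypes overlap for *Akap4* to *Akap3* and are apart for the other 5 pairs.

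A further readout came from dividing estimated counts by TPM, which gives the average effective length of the transcripts assigned to a gene, here relative to the median gene of the library. It rose in cKO by 1.08% for *Odf2* to 5.78% for *Ropn1*. The genotypes were apart for 9 members, beside 49.5% of the 13958 genes measured (exact permutation p = 0.0286, adjusted 0.0317). *Odf2*, the member with the most annotated transcripts, had overlapping genotypes (exact permutation p = 0.2). These shifts were of ordinary size, since the median gene moved by 4.98% in either direction and the gene at the 90th percentile by 23.3%. The members' shifts all had the same sign, and because the scale is set by the median gene, a common shift of the members and a shift of that gene cannot be told apart.

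Other genes of the tail were read from 4 lists in the same fit, where 36.5% of all genes were called higher and 37.5% lower. Among 10 tested partners and relatives of the outer dense fiber genes, 8 were higher and 2 lower, with a median log2 fold change of 1.33, and *Ccdc42*, called higher at 0.26, lost its call under 3 of 19 alternatives and changed sign under 1 of them. *Tssk4*, a kinase of spermatids that acts on ODF2, rose by 2.42 and *Odf3l1*, a relative of *Odf3*, by 2.41, whereas *Odf2l*, a relative of *Odf2*, fell by 0.48 and *Spag5*, a spindle protein that binds ODF1, fell by 0.29. Among 10 partners of the fibrous sheath, 8 were higher and 2 lower, with a median of 1.85. *Cabyr*, a calcium-binding sheath protein, rose by 2.38 and *Aldoart2*, a sperm aldolase, by 2.34. *Rhpn1*, a binding partner of ropporin, fell by 0.61. *Ldhc*, the lactate dehydrogenase of germ cells, was called at -0.19 (edgeR adjusted p = 0.0421), a call lost under 10 of 19 alternatives. *Ldhc* is already abundant in pachytene cells.

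The midpiece and annulus list had 7 higher and 2 lower of 9, with a median of 1.15. *Spata19*, a mitochondrial protein of the midpiece, rose by 2.31 and *Septin4*, a component of the annulus, by 2.26, but the other annulus genes *Septin12* and *Slc26a8* fell by 0.63 and 0.42 on the log2 scale. Of the 6 subunits of protein kinase A, which the anchors hold, 6 were higher and 0 lower, with a median of 0.56. *Prkar1b* and *Prkar2a*, both regulatory subunits, rose by 2.21 and 1.84. The catalytic *Prkaca*, at 0.15, lost its call under 4 of 19 alternatives and was called lower, at -0.13, on TPM rescaled over the listed genes. *Prkacb* and *Prkar2b* also lost their calls on that scale. These genes and *Ccdc42* were singled out after their values had been seen.

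The spermatid markers, none of them a member, covered a range that held 4 of the 7 members that rose most, *Odf1*, *Odf3*, *Ropn1* and *Fsip1*. All 17 were higher, with a median of 2.16 and a range from 1.79 for *Tssk6*, a spermatid kinase, to 2.36 for *Spaca1*, an acrosomal protein. *Prm1*, a protamine that packs sperm DNA, was the median gene at 2.16 (SE 0.06, edgeR adjusted p = 4.19e-13). *Odf2*, *Ropn1l* and *Odf4*, with log2 fold changes of 0.95, 0.40 and -0.03, were below the whole range of these markers. *Akap14*, at 2.66, was above it, and *Akap3* and *Akap4* were within an SE of its upper end. Of the 10 pachytene markers, 3 were higher, 6 lower and 1 not called, with a median of -0.46.

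**Figure D4:**
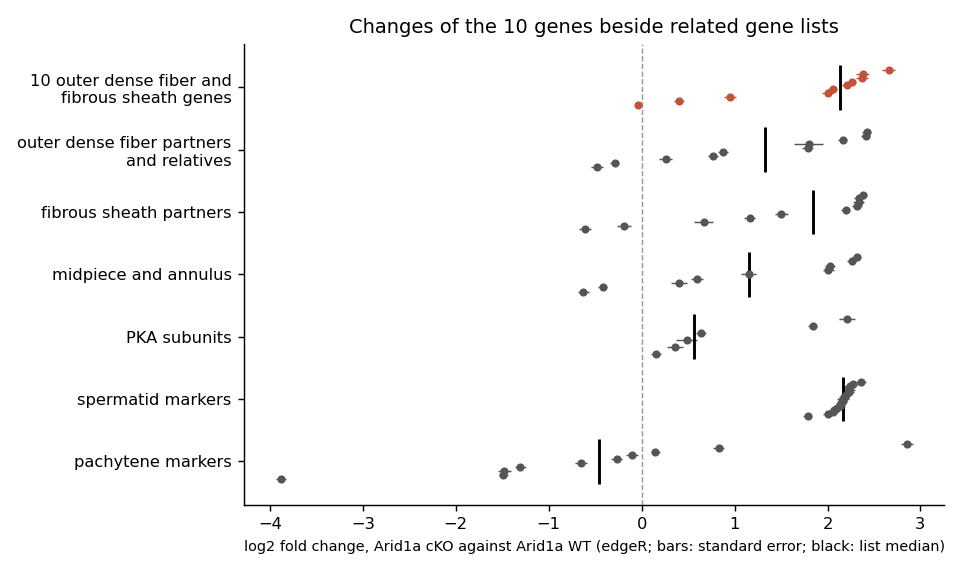
Log2 fold change of cKO over WT for each gene of the members, the 4 tail-related lists and the spermatid and pachytene markers, 1 point per gene with its standard error and a bar at each list's median. The spermatid markers lie between 1.79 and 2.36, and the members lie between -0.03 and 2.66.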

How the data were processed

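The authors quantified paired-end mRNA reads with Salmon, summarised them to genes on mm10 and deposited 2 tables of 21058 genes by 8 libraries: estimated counts, and TPM, scaled over all transcripts. The listed genes' TPM summed to between 78.1% and 81.1% of the total in WT and between 88.1% and 88.6% in cKO. A deposited list of the authors' own fold changes and p-values was not used.

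Estimated counts were rounded. Genes with at least 10 summed counts were tested with edgeR 4.0.16 (TMM, quasi-likelihood, genotype alone, R 4.3.3), with p adjusted by Benjamini and Hochberg over all genes tested and a threshold of 0.05. CPM used TMM-scaled library sizes. DESeq2 1.42.0, limma 3.58.1, other scalings and filters, length offsets, a replicate block and leaving out each library were the alternatives. Per-library counts of the members ran from 125 to 72010. On data simulated for this comparison over 17529 genes, edgeR recovered 95% of 200 genes changed 2-fold, and 8.21% of its calls were unchanged genes. The changed genes went up and down in equal number and were drawn from genes above an expression cut. Far more genes were called in the data, so these rates need not hold there. No pair of libraries of a genotype agreed within sampling noise (chi-square per degree of freedom 1.71 to 18.03).

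Named were all 10 members, *Arid1a*, the 2 called genes with the largest rise and fall in each tail list, and the highest, lowest and median spermatid marker. *Prkaca*, *Prkacb*, *Prkar2b*, *Ccdc42*, *Fsip2*, *Gk2*, *Id4*, *Sycp2* and *Spo11* were added after their values had been seen. Genes overlapping a member are named for that overlap. The members and lists were chosen with earlier results of these data known. Gene positions came from RefSeq's gene records on GRCm38. Strands, transcript numbers, shared words and exon overlaps came from the GENCODE annotation of GRCm38. Promoters came from RefSeq's table (GRCm38.p6), where 8 members had an entry in 12 windows of 250 bases before and 50 after a start. Upstream windows of *Odf3*, *Ropn1* and *Ropn1l*, which overlap exons, are not printed. A planned print of member proteins was not made. Python 3.11.15 and matplotlib 3.10.9 were used.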

Additional observations from a re-analysis of the deposited data

Results flagged for a closer look

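In 54 groups of 4 libraries (CPM, relative lengths, ratios and sums of the members by genotype), 2 had 1 library apart from the others by more than Dixon's critical value, where chance gives about 2.7. For *Odf4* CPM in WT, replicate 4 held 214 against 219 to 220.04 in the others, a gap of 0.8608 of the range. For the relative transcript length of *Odf3* in cKO, replicate 1 was at 0.484 against 0.476 to 0.477, a gap of 0.8554 of the range.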

How the results depend on the processing

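The same 9 members were called higher under each of the 20 alternatives, including each left-out library. The number called lower, 0 in the analysis as reported, was 1 without TMM factors, 1 on log2(TPM + 1), 1 on log2(TPM + 0.1) and 1 on TPM rescaled over the listed genes, the last chosen after seeing the data. The member was *Odf4* in each, at -0.13 (edgeR adjusted p = 0.00819), -0.19 (limma, 0.00353), -0.19 (limma, 0.00324) and -0.34 (limma, 0.000107). The median over all genes moved from -0.02 to -0.12, -0.05, -0.10 and -0.13 in the same order, and the cause was not tested. *Ropn1l* kept its call at values from 0.11 to 0.44, the lowest on rescaled TPM. The fibrous sheath partners had 1 gene called lower by DESeq2 in place of 2, *Ldhc* being lost. On log2(TPM + 1) the outer dense fiber partners had 7 called higher in place of 8 and the subunits of protein kinase A 5 in place of 6. Without TMM factors the subunits again had 5 called higher, and the outer dense fiber partners had 8. On TPM rescaled over the listed genes, *Fsip2*, *Gk2*, *Prkacb* and *Prkar2b*, each called higher in the analysis as reported, lost their calls (limma adjusted p = 0.0557, 0.13, 0.145 and 0.216), each under that 1 of 19 alternatives. The log2 ratio of summed TPM, 0.96, became 1.01 without *Odf2*, 1.16 as a share of estimated counts and 0.81 on rescaled TPM. Leaving out single libraries moved the *Akap4* to *Akap3* difference between -0.0007046 and 0.0179, the negative value without WT replicate 1.

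The labels name nothing that libraries with the same replicate number share beyond the number. Their deviations from the group means had correlations of 0.116, -0.00594, 0.0783 and -0.0986. These values cannot show whether such libraries shared a preparation. With a replicate block 9 members were called higher and 0 lower, and over all genes 6429 were higher and 6671 lower against 6435 and 6613. All libraries held enough reads of the members for the differences given, *Akap14* in WT being the thinnest.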
